A study of Mus musculus with 4 samples.

Results

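A T cell clone is the set of cells that descend from a single T cell and carry the same rearranged receptor. The receptor is a pair of chains, alpha and beta, and the third complementarity-determining region (CDR3) of each chain touches the peptide presented on an MHC molecule. CD8 T cells kill their targets with perforin and granzymes and release cytokines such as interferon gamma, and a clone that meets its antigen in a tumour can divide many times. The 4 clones described here are the largest among the CD8 T cells of mouse mammary tumours treated with a plasmid that encodes interleukin-12 (IL-12), a cytokine known to act on T and NK cells. Each was compared with the other 3 for its place among the clusters, its cell cycle genes and its expression.

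The clones are the 4 clonotype identifiers with the most cells in the IL-12 expression library, among cells that the authors class as CD8 T cells outside their cluster 12. They hold 1415 of the 2560 such cells (55.3%), and 62.4% of the 2269 that have a receptor. Clone 1 has 518 cells, clone 2 has 491, clone 3 has 211 and clone 4 has 195. The numbers are those of the authors' identifiers. The members were chosen by their number of cells alone, so the order of the sizes is a description. The fifth identifier, just outside the rule, has 80 cells. A further 854 cells belong to other clones and 291 have no receptor in the table. In all, those CD8 T cells carry 349 identifiers, the library holds 12979 cells, and the series, with the control library, 17211.

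The study injected a control plasmid or an IL-12 plasmid into the tumours, electroporated them, and sorted CD45+ leukocytes, with 3 mice pooled for each treatment. Each pool gave 1 gene expression library and 1 receptor library, made from transcript 5′ ends. The labels give the tumour as a triple-negative breast tumour in the design text and as HER2-induced in the growth text, so the model is called a mammary tumour here. HER2 was induced when the mice were 1 month old. Neither a strain nor the time from treatment to harvest is given in the sources used here. All 4 clones lie in the single IL-12 library, so the cells are not replicates and no difference was tested. Intervals are exact 95% intervals and cover counting error only. The labels do not tie cells to mice, so a clone and the mouse it grew in cannot be told apart.

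A cell's depth is its number of unique molecular identifiers (UMIs), each of which counts as 1 captured transcript molecule. Median depth was 6940.5 UMIs in clone 1, 5474 in clone 2, 6030 in clone 3 and 5560 in clone 4, and the clones' totals ranged from 1182885 to 3842279 UMIs. The median mitochondrial share ranged from 0.994% in clone 1 to 1.25% in clone 3. Clone 1 was the deepest and had the most genes per cell (median 1682.5, against 1485 to 1587 in the other 3). Of the barcodes of the 1415 cells, 3 also occur in the control library, out of 87 shared by the libraries. Below, a level is the summed UMIs of a gene over a clone's cells per 1000000 of all UMIs in those cells (CPM).

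The CD8 T cell label was borne out in each clone. Cd8a, the alpha chain of the CD8 co-receptor, was at 1255 CPM in clone 1, 957 in clone 2, 996 in clone 3 and 1046 in clone 4, with a UMI in 97.6% to 99.4% of cells. Cd4 was at 0.52 to 6.91 CPM and Foxp3, which defines regulatory T cells, at 0 to 0.99 CPM. Of the 10 identity genes, 9 stayed within 1.5-fold in every clone, and Thy1 was higher in clone 1 at 1398 CPM, 1.52-fold (1.46 to 1.58) above the other 3. The NK receptor Ncr1 and the dendritic cell gene Flt3 had no UMI in any of the 4 clones. Flt3 was also rare in cells that the authors class as dendritic cells, at 3.73 CPM. Other genes of both lists were present. The summed dendritic cell list was at 929 CPM in clone 1, 1147 in clone 2, 427 in clone 3 and 924 in clone 4. The summed NK cell list was at 122, 106, 74.0 and 74.4 CPM. The source of these UMIs was not tested.

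The receptors of clones 2 and 3 are close relatives. They have the same alpha CDR3, 15 residues long, and beta CDR3s of 16 residues that differ at 2 positions. Counted from 1 at the first residue, and written as clone 2's residue, the position and clone 3's residue, these are T7L and A10S. The CDR3s of clone 1 have 14 residues in each chain and those of clone 4 have 13 in alpha and 15 in beta, so neither pairs by length with any other clone. The fifth identifier, with 80 cells, carries that shared alpha together with the betas of both clone 2 and clone 3, and its cells are called dual-beta cells below. Over all identifiers, 82 cells had both of those betas, 12.5% of the 654 cells with clone 2's beta and 25.5% of the 321 with clone 3's. The betas of clones 1 and 2 occurred together in 9 cells, those of clones 2 and 4 in 6, and the other 3 pairs in none.

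None of the 497 control cells with a receptor carried any chain of the 4 clones, which allows a share of up to 0.604% by a limit of 3 counts. Near relatives of clones 2 and 3 did occur there. A control receptor of 15 cells differs from clone 2 by R5G in the alpha CDR3 and by P5L, G6D and A10G in the beta CDR3. Another, of 7 cells, differs from clone 2 by S4R and R5Q in alpha and by G6D, T7W and A10G in beta. The position-10 residue of the beta CDR3 thus differs from clone 2 in clone 3 and in both of these control receptors.

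Each clone sat almost wholly in the authors' cluster 5. That cluster held 514 of 518 cells of clone 1 (99.2%, interval 98.0% to 99.8%), 489 of 491 of clone 2 (99.6%, 98.5% to 99.95%), 207 of 211 of clone 3 (98.1%, 95.2% to 99.5%) and 193 of 195 of clone 4 (99.0%, 96.3% to 99.9%). The intervals overlap, and the share in the other clones together was 97.9%. The few cells elsewhere were 4 in clone 1, 2 in clone 2, 4 in clone 3 and 2 in clone 4, 9 of these 12 in cluster 8. The rule, which takes CD8 T cells outside cluster 12, leaves mostly cells of cluster 5 in any clone.

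Over the whole library, where the rule on class and cluster does not apply, cluster 5 held 77.6% of the cells of clone 1 (interval 74.3% to 80.8%), 73.1% of clone 2, 73.4% of clone 3 and 67.5% of clone 4 (61.7% to 72.9%). The intervals of clones 1 and 4 do not overlap. Cluster 12, which the rule leaves out, took 15.9% of the cells of clone 1, 14.8% of clone 2, 16.7% of clone 3 and 14.0% of clone 4. Cells that the authors class as macrophages made up 3.14% to 4.90% of each clone. Cells with the receptor that the authors class as CD4 T cells, all of them in cluster 9, were unevenly spread: 15 of 662 in clone 1 (2.27%, interval 1.27% to 3.71%), 55 of 669 in clone 2 (8.22%, 6.25% to 10.6%), 13 of 282 in clone 3 (4.61%, 2.48% to 7.75%) and 34 of 286 in clone 4 (11.9%, 8.38% to 16.2%). Clones 2 and 4 thus had a larger share of cells in that class than clone 1, beyond counting error, and the interval of clone 3 overlaps those of clones 1 and 2. Over the whole library, that class had Cd8a at 491 CPM and Cd8b1 at 528 CPM, against Cd4 at 67.0 CPM. Its name thus does not show that these cells of the clones carry CD4.

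**Figure D1:**
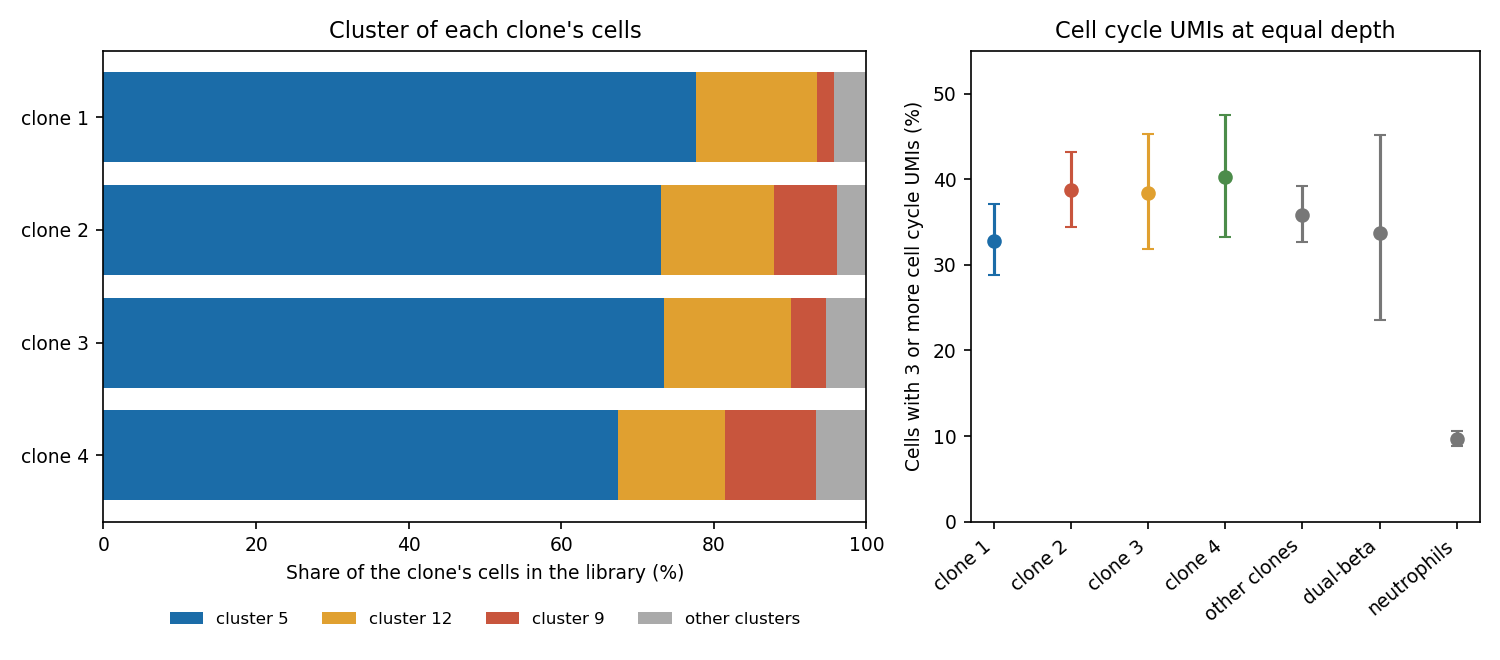
Left, the share in percent of each clone's cells in the IL-12 library that lies in clusters 5, 12, 9 and all others. Right, the share of cells with at least 3 UMIs of cell cycle genes after thinning to 2000 UMIs, with exact 95% binomial intervals; clones 1 to 4 lie between 32.8% and 40.2% and neutrophils at 9.68%.

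Cell cycle genes gave overlapping shares in the 4 clones. After 2000 UMIs were drawn at random from each cell (thinning), the share of cells with at least 3 UMIs of 40 S phase and G2 and M phase genes was 32.8% in clone 1 (interval 28.8% to 37.0%) and 38.7% in clone 2 (34.4% to 43.2%). It was 38.4% in clone 3 (31.8% to 45.3%) and 40.2% in clone 4 (33.2% to 47.5%). These sit beside 35.9% in the other clones and 9.68% in neutrophils, a type that should divide little here, whose median depth was 2553 UMIs and of which the 1796 with under 2000 UMIs were left out. At full depth the shares were 89.2%, 89.2%, 88.6% and 92.8%. Because free RNA also gives UMIs, the shares were read against the neutrophil value and not as counts of dividing cells. Dut, Slbp, Pcna, Hmgb2 and Tubb4b were the highest of the 40 genes, at 101 to 192 CPM over the clones. No other of the 40 was above 74.4 CPM in any clone. The shares and the list levels thus rest largely on those genes, and whether their UMIs mark division was not tested. Cells with 10 or more such UMIs after thinning were few, 3.09% of clone 1, 1.63% of clone 2, 2.37% of clone 3 and 3.61% of clone 4. The largest clone was thus not the one with the highest share of cells above the threshold, and the differences lie within overlapping intervals.

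The levels of the S phase list and of the G2 and M phase list also differed between clones. Their intervals count UMIs and those of the shares count cells, so the widths cannot be compared. The S phase list was at 734 CPM in clone 1 (interval 707 to 762), below 835 in clone 2 (803 to 868), 872 in clone 3 (823 to 923) and 850 in clone 4 (798 to 904). The G2 and M phase list had the opposite order for clones 1 and 2, with 617 CPM in clone 1 (593 to 643), 474 in clone 2 (450 to 499), 501 in clone 3 (464 to 540) and 597 in clone 4 (554 to 643). So clone 1 was the lowest for S phase genes and had, with clone 4, the higher G2 and M phase levels. After thinning, 16 cells of clone 1 and 8 of clone 2 had 10 or more UMIs of the lists together. UMIs thus gather in some cells, and the intervals of the list levels understate the uncertainty. Without cells with at least 3 UMIs of the macrophage list given below, the S phase list was at 700, 852, 825 and 870 CPM in clones 1 to 4. The G2 and M phase list was then at 547, 489, 471 and 609 CPM, with clone 1 below clone 4.

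Within the lists, single genes went either way. Of 18 measured S phase genes in clone 1, Mcm3 and Gins2 were lower, against a background of 8.33%. Only Tk1, which encodes thymidine kinase 1, was higher, against a background of 4.38%. It was at 16.7 CPM against 10.1 to 11.1 in the other 3. Ube2c, a ubiquitin-conjugating enzyme of mitotic exit, was at 59.1 CPM in clone 1, 15.8 in clone 2, 34.0 in clone 3 and 31.3 in clone 4. Birc5, which encodes survivin, was at 26.3 CPM in clone 1 and 8.22 in clone 2, with 19.2 and 20.3 in clones 3 and 4. A UMI of Birc5 was found in only 6.18%, 2.65%, 4.27% and 3.59% of cells, so counting intervals understate its uncertainty. Without cells with at least 3 macrophage UMIs, Birc5 was at 17.1, 8.94, 18.5 and 22.2 CPM, and clone 1 was below clones 3 and 4. Clone 2 was at least 1.5-fold below the other 3 for 4 of 10 measured G2 and M phase genes (Top2a, Birc5, Ube2c and Cdca8), against 3.46% of all measured genes lower in that clone. Mki67, the gene of the proliferation marker Ki-67, differed little, at 33.1, 29.6, 25.2 and 40.6 CPM in clones 1 to 4. Mcm6, a subunit of the replicative helicase, was 1.69-fold higher in clone 4, at 72.7 CPM against 36.4 in clone 1. The authors' own phase calls were close to one another, with 52.1% to 55.5% of cells in S, 28.8% to 34.6% in G2M and 13.2% to 16.1% in G1.

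A gene counted as measured in a clone's comparison when it had at least 50 UMIs over the 4 clones and when 5% or more of cells had it, in the clone or in the other 3. Of 6436 such genes, 282 (4.38%) were at least 1.5-fold higher in clone 1 than in the other 3 summed and 536 (8.33%) at least 1.5-fold lower. In clone 2 the counts were 330 higher (5.19%) and 220 lower (3.46%) of 6362. In clone 3 they were 578 higher (8.97%) and 485 lower (7.53%) of 6443, and in clone 4 they were 313 higher (4.91%) and 458 lower (7.19%) of 6371. The small clones have fewer UMIs per gene, and when only genes whose ratio interval leaves out 1 were kept, clone 3 had 392 higher and 343 lower and clone 4 had 188 and 201. Of the clone 4 genes past the fold, many thus lie within counting error of no difference. The other 3 are summed by UMIs, so clones 1 and 2, with 3842279 and 3040132 UMIs, weigh most in each other's reference. A gene that sets clones 1 and 2 apart can thus count as higher in one and lower in the other.

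Clone 1 carried the Ly6 genes at high level. Ly6c1 and Ly6c2 encode the surface protein Ly6C, which memory and effector CD8 T cells carry, and Ly6a encodes Sca-1. Ly6c2 was at 548 CPM in clone 1 (interval 525 to 572), 197 in clone 2 (182 to 214), 46.6 in clone 3 (35.8 to 59.6) and 223 in clone 4 (197 to 252), which is 3.30-fold (3.05 to 3.56) higher in clone 1 than in the other 3. Ly6c1 followed with 599, 213, 49.6 and 277 CPM. Ly6a was at 1204 CPM in clone 1, 477 in clone 2, 181 in clone 3 and 605 in clone 4. For all 3 genes clone 1 was the highest and clone 3 the lowest, and the distance between them for Ly6c2 was 11.76-fold (9.15 to 15.4). After thinning, a UMI of Ly6c2 was found in 40.3% of cells of clone 1, 18.7% of clone 2, 6.16% of clone 3 and 24.2% of clone 4. Neutrophils, which carry the gene at 115 CPM, gave 12.04%, among the 4112 of 5908 deep enough to thin. Ly6c1 (mm10 chr15:75044018-75048830) and Ly6c2 (chr15:75108158-75111970) lie on the minus strand of the same chromosome as near copies. Of the distinct 60-base stretches in Ly6c1 transcripts 27.1% also occur in another gene, mostly Ly6c2, so the split between this pair is uncertain.

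The interferon response list had its extremes in the same clones as the Ly6 genes. In clone 1, 7 of 18 measured genes were at least 1.5-fold higher and none lower, against 4.38% of all measured genes higher, and the median log2 ratio was 0.40 where that of all measured genes was -0.08. In clone 3, none was higher and 11 of 18 were lower, against a background of 7.53%, with a median of -0.54 where that of all measured genes was 0.04. Ly6a is itself in this list and adds its level, given above, to every sum of the list. The sums thus do not stand apart from the Ly6 genes. Usp18, which removes the ubiquitin-like protein ISG15 from its targets, was at 51.0 CPM in clone 1, 17.8 in clone 2, 14.8 in clone 3 and 17.8 in clone 4. Bst2, which encodes the antiviral protein tetherin, was at 376, 196, 138 and 183 CPM. Isg15 itself was at 372 CPM in clone 1 (interval 353 to 392), 305 in clone 2 (285 to 325), 183 in clone 3 (161 to 207) and 315 in clone 4 (284 to 349). The summed list was at 2906 CPM in clone 1, 1709 in clone 2, 1078 in clone 3 and 1834 in clone 4, so clones 1 and 3 stood at the ends and clones 2 and 4 between them. Of 12 measured genes of MHC class I presentation, 1 was higher in clone 1 (Psmb9, an immunoproteasome subunit, at 454, 279, 293 and 271 CPM) and 1 was lower in clone 3 (H2-T23, an MHC class I gene, at 447, 362.5, 229 and 320 CPM). None passed 1.5-fold in clones 2 and 4. The backgrounds were 4.38% higher in clone 1 and 7.53% lower in clone 3, and 1 gene of 12 is not read as a result about this list.

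Macrophage genes were likewise highest in clone 1 and lowest in clone 3, and their part in the differences above was tested only by leaving out cells that carry them. The summed list of 8 macrophage and monocyte genes was at 715 CPM in clone 1, 492 in clone 2, 173 in clone 3 and 483 in clone 4. In clone 1, 5 of 6 measured members were higher, against a background of 4.38%, and in clone 3 all 6 were lower, against 7.53%. Apoe, a lipoprotein gene of macrophages, was at 293, 184, 46.6 and 212 CPM, while the authors' macrophage class had it at 4095 CPM. Csf1r, which defines macrophages, was at 3.12 to 4.93 CPM in every clone, and Adgre1 had no UMI in clone 3. Cells with at least 3 UMIs of the list made up 27.6% of clone 1, 17.3% of clone 2, 10.4% of clone 3 and 18.5% of clone 4. Without those cells the interferon list was at 2838, 1703, 1108 and 1746 CPM, close to the levels over all cells. Ly6c2 was then at 588, 193, 43.8 and 184 CPM. Ccl8, a chemokine, ranked highest for clone 1 with 82.8 CPM against 16.4, 6.66 and 27.9, but without those cells it was at 13.05, 5.69, 5.90 and 10.6 CPM, and the macrophage class had 269 CPM. Most of the Ccl8 of clone 1 thus lay in cells with macrophage UMIs, and the Ly6c2 level did not. Neutrophils had Isg15 at 5386 CPM, and the summed neutrophil list was at 461, 578, 412 and 460 CPM, highest in clone 2.

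**Figure D2:**
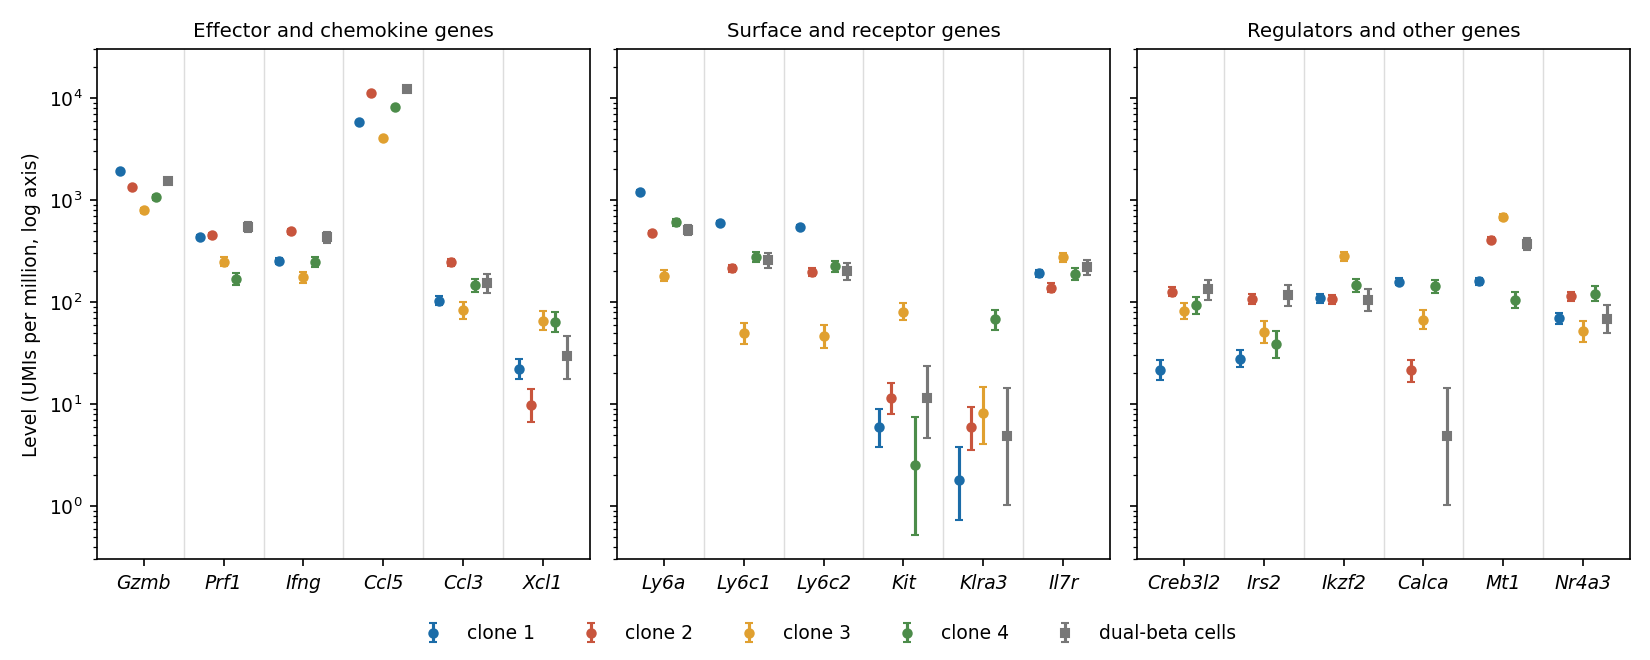
Level of 18 genes in UMIs per 1000000 on a log axis for clones 1 to 4 and for the dual-beta cells, with exact 95% Poisson intervals that cover counting error only. Ly6a, Ly6c1 and Ly6c2 were highest in clone 1 and lowest in clone 3, Kit stood out in clone 3 at 80.7 CPM, and Klra3 in clone 4 at 67.6 CPM.

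The cytotoxic genes set clone 1 highest and clone 3 lowest. The summed list of 14 effector genes was at 11720 CPM in clone 1, 9854 in clone 2, 8093 in clone 3 and 8669 in clone 4. Gzmb, which encodes granzyme B, was at 1908 CPM in clone 1 (interval 1865 to 1953), 1336 in clone 2 (1295 to 1378), 790 in clone 3 (743 to 838) and 1065 in clone 4 (1007 to 1126), and no pair of these intervals overlaps. Clone 3 was thus 1.99-fold (1.87 to 2.12) below the other 3. In clone 3, however, 25 cells with 10 or more UMIs held 74.1% of the Gzmb UMIs, and 1 cell held 17.4%. Without the richest cell of each clone, Gzmb was at 1828, 1266, 659 and 1008 CPM in clones 1 to 4, in the same order. Counting intervals thus understate the uncertainty of Gzmb. Prf1, which encodes perforin, was at 432 CPM in clone 1 and 452 in clone 2 but at 249 in clone 3 and 169 in clone 4. The intervals of clones 1 and 2 overlap, and clone 4, at 2.42-fold (2.097 to 2.80) below the others, was the lowest. In clone 4, 4 of 12 measured effector genes were lower (Gzmc, Gzmd, Gzme and Prf1), where 7.19% of all measured genes were lower. Of these, Gzmc, Gzmd and Gzme had a UMI in only 4.62%, 5.13% and 4.10% of clone 4's cells, and 1 cell held 72.3% of the Gzmd UMIs.

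The other granzymes rested on few cells. Gzmc was at 155 CPM in clone 1 and 36.4 in clone 4, but in clone 1 only 12.7% of cells had a UMI and 25.3% of the UMIs lay in 1 cell. Gzmd was at 92.1, 135, 190 and 54.95 CPM, and in clone 3 only 7.58% of cells had a UMI and 30.4% of the UMIs lay in 1 cell. Without that richest cell, clone 3 had 134 CPM and clone 2 without its own had 119. Gzmd and Gzme share sequence, with 14.6% of the distinct 60-base stretches in Gzmd transcripts found in another gene, mostly Gzme. So counting intervals understate the uncertainty of these genes, and the order of the clones is not given for them.

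Several cytokine and chemokine genes were highest in clone 2. Of 8 measured cytokine and chemokine genes, 4 were higher in clone 2 (Ifng, Ccl3, Ccl4 and Ccl5) and 1 was lower, against a background of 5.19% higher. Of these, Ccl3 was at 6833 CPM in neutrophils, whose list was highest in clone 2, and the part of neutrophil RNA was not tested. Ifng, which encodes interferon gamma, stood at 253 CPM in clone 1, 491 in clone 2, 175 in clone 3 and 248 in clone 4, which is 2.09-fold (1.94 to 2.24) above the other 3. After thinning, a UMI of Ifng was found in 28.6%, 32.4%, 21.3% and 29.9% of cells, so the share of cells differed less than the level. In clone 2, 26 cells with 10 or more UMIs held 60.1% of its Ifng. Ccl5, a chemokine that attracts T cells and monocytes, was at 5752 CPM in clone 1, 11261 in clone 2, 4074 in clone 3 and 8070 in clone 4, and 82.7% of clone 2's thinned cells had it. Xcl1, which attracts cross-presenting dendritic cells, ran the other way, at 9.87 CPM in clone 2 and 22.1 in clone 1 but at 65.9 in clone 3 and 64.2 in clone 4. Xcl1 was found at full depth in 10.9% and 10.3% of cells of clones 3 and 4, against 3.86% and 3.05% in clones 1 and 2.

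The list of T cell receptor activation and immediate early genes had more genes higher than lower in clones 2 and 4, and more lower than higher in clones 1 and 3. Some of its genes, such as Fos, Dusp1 and Egr1, are also known to be induced by handling of tissue, and the part of handling was not tested. In clone 2, 8 of 16 measured genes were higher and none lower, against a background of 5.19% higher, with a median log2 ratio of 0.47 against 0.04 for all measured genes. In clone 4, 4 of 15 were higher and 1 lower, against a background of 4.91% higher, with a median of 0.29. In clone 1, none was higher and 5 of 16 were lower, against a background of 8.33% lower. All 5 (Fos, Dusp1, Dusp2, Dusp5 and Icos) are among the 8 higher in clone 2, so the counts of clones 1 and 2 are not separate results. In clone 3 none was higher and 7 of 15 were lower, against 7.53%. Nr4a3, an early nuclear receptor gene induced by receptor signalling, was at 69.0 CPM in clone 1, 114 in clone 2, 51.8 in clone 3 and 121 in clone 4. Dusp2, a phosphatase that acts on MAP kinases, was at 254, 469, 225 and 471 CPM, and Fosl2, a member of the AP-1 family, at 163, 235, 102 and 287 CPM. For these 3 genes clones 2 and 4 were high and clones 1 and 3 low. The stress list, which handling of tissue can induce, had 10 measured genes in each clone. Atf3 was lower in clone 1 (12.8 CPM) and higher in clone 2 (26.3), Hsph1 was lower in clone 1, and no other passed 1.5-fold in any clone. The backgrounds were 8.33% lower in clone 1 and 5.19% higher in clone 2.

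**Figure D3:**
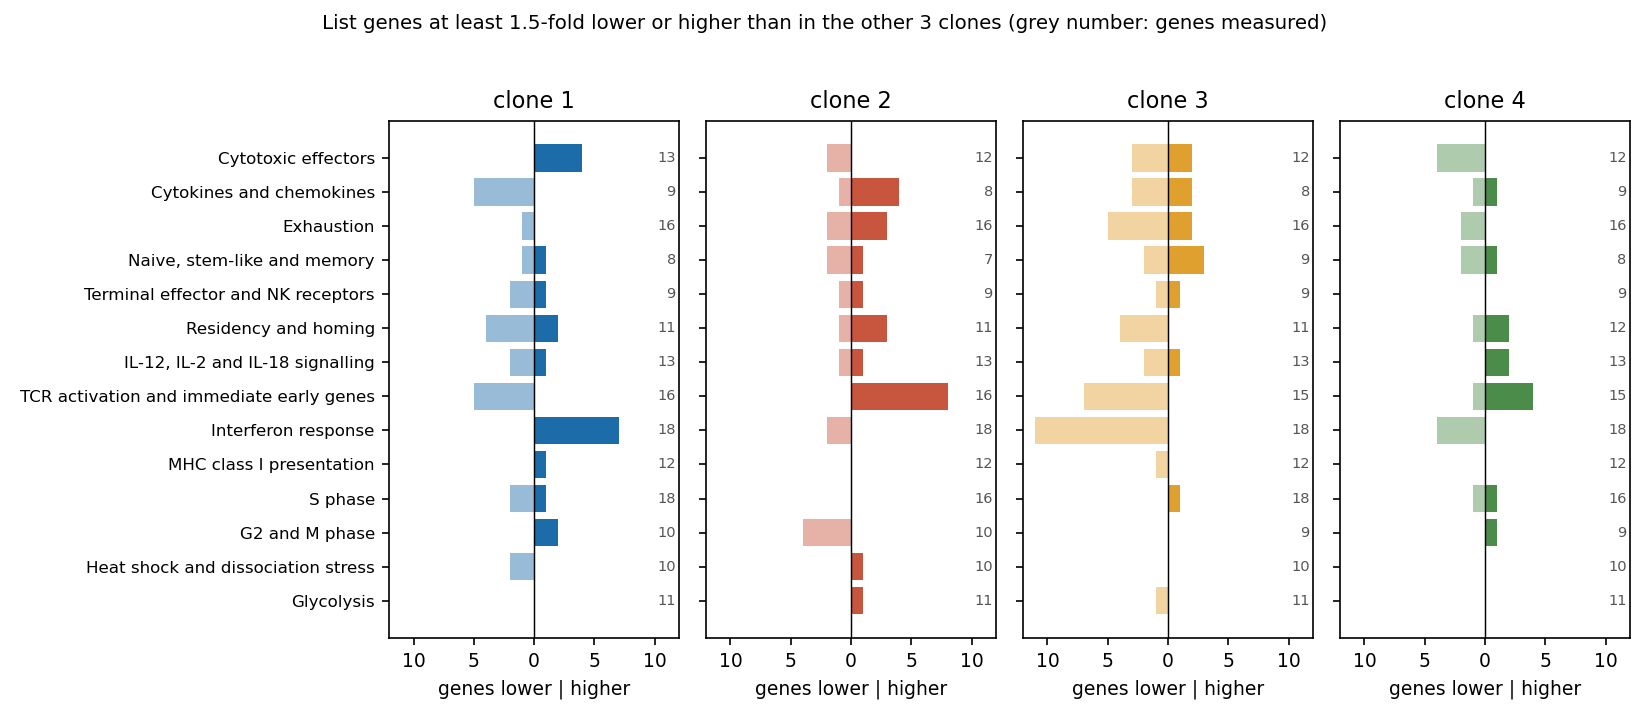
Number of genes in each of 14 T cell lists that were at least 1.5-fold lower (pale, to the left) or higher (solid, to the right) in a clone than in the other 3 summed, with the number measured in grey. The interferon list had 7 higher in clone 1 and 11 lower in clone 3, and the receptor activation and immediate early list had 8 higher in clone 2 and 7 lower in clone 3. Over all measured genes, 4.38% were higher in clone 1, 5.19% higher in clone 2 and 7.53% lower in clone 3.

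Of the genes ranked highest in clone 2, Irs2 and Creb3l2 were spread over many cells. Irs2, an adaptor of the insulin receptor, was at 27.8 CPM in clone 1, 107 in clone 2, 51.1 in clone 3 and 38.9 in clone 4, or 3.06-fold (2.57 to 3.65) above the other 3. Creb3l2, a transcription factor anchored in the endoplasmic reticulum (mm10 chr6:37327255-37442146, minus strand), was at 21.6 CPM in clone 1, 127 in clone 2, 82.1 in clone 3 and 93.0 in clone 4. It thus ranked as the lowest gene of clone 1 as well, at 5.03-fold (3.995 to 6.41) below the others. These 2 ranks are not separate results, since with clone 1 out of the reference Creb3l2 was no longer past 1.5-fold in clone 2. A UMI was found at full depth in 10.8%, 46.0%, 35.1% and 30.8% of cells, and after thinning in 4.25%, 23.2%, 13.3% and 16.5%, against 0.49% in neutrophils. Ptch1, the receptor of hedgehog ligands, was at 6.25, 37.2, 17.8 and 15.2 CPM, and Atmin, a transcription factor, at 10.2, 41.8, 25.9 and 10.1 CPM. Cd200r1, an inhibitory receptor, was lowest in clone 1, at 2.34 CPM against 23.03, 10.4 and 21.98.

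Calca, which encodes calcitonin and the neuropeptide CGRP, divided the clones into high and low. It was at 158 CPM in clone 1 (interval 146 to 171) and 143 in clone 4 (122 to 166), but at 21.4 in clone 2 (16.5 to 27.3). In clone 3 it stood at 67.3 CPM, of which 1 cell held 47.3%, and at 35.6 without that cell. A UMI was found in 32.2% of cells of clone 1 and 31.8% of clone 4, against 5.70% of clone 2 and 6.64% of clone 3. So by share of cells the gene was common in clones 1 and 4 and rare in clones 2 and 3, the pair with related receptors. Ly6e was also lowest in clone 2, at 239 CPM against 700, 406 and 380, and Upp1, a uridine phosphorylase, was at 99.9 CPM in clone 1 against 25.7, 52.5 and 27.1. Neutrophils had Upp1 at 2135 CPM, and the part of neutrophil RNA in the Upp1 levels was not tested. With the cells of cluster 12 included, the log2 ratio of Upp1 in clone 1 was 0.18 in place of 1.37.

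Kit and Ikzf2 were highest in clone 3. Kit, the receptor of stem cell factor (mm10 chr5:75574916-75656722, plus strand), was at 5.99 CPM in clone 1, 11.5 in clone 2, 80.7 in clone 3 and 2.54 in clone 4. That is 10.7-fold (7.73 to 14.8) above the other 3, and 31.8% of clone 3's cells had a UMI, against 1.54% to 5.91% in the others. After thinning the share was 12.8% in clone 3 and 0.36% in neutrophils. Mast cells are known to carry Kit. The mast cell and basophil list was at 34.8 CPM in clone 3, of which Mcpt1 and Mcpt2 gave 19.2 and 12.6, and at 33.3 to 39.8 in the other 3. The part of mast cell RNA in the Kit level was not tested. Ikzf2, which encodes the transcription factor Helios, was at 109, 106, 283 and 145 CPM, with a UMI in 69.2% of clone 3's cells and 34.6% to 42.1% of the others. Foxp3 had 1 UMI in clone 3, so this Helios level was found without the gene that defines regulatory T cells. Acpp, a phosphatase gene, was at 7.55, 19.1, 70.3 and 33.0 CPM, and Krt83, a hair keratin gene, at 8.07, 0.99, 45.1 and 4.23 CPM.

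Of 9 measured genes of naive, stem-like and memory T cells, 3 were higher in clone 3 (Ccr7, Il7r and Bach2) and 2 lower (Klf2 and Ly6c2), against backgrounds of 8.97% and 7.53%. The median log2 ratio was -0.06 where that of all measured genes was 0.04, and the summed list was lowest in clone 3, at 1319, 1182, 1023 and 1194 CPM. Il7r, the receptor chain for interleukin-7, was at 191, 138, 276 and 187 CPM. Bach2, a transcription factor that holds back effector genes, was at 4.68, 2.63, 14.8 and 10.1 CPM, and also passed 1.5-fold higher in clone 4. Ccr7, the receptor for homing to lymph nodes, was at 94.0 CPM in clone 3 against 4.42, 26.6 and 12.7, but 5 cells of clone 3 held 79.5% of its UMIs and 8.53% of cells had any. Tcf7, the gene of the stem-like factor TCF-1, was at 8.07, 1.64, 9.62 and 5.07 CPM and was in too few cells to count as measured. Mt1, a metallothionein that binds zinc, was at 160, 409, 682 and 105 CPM, highest in clone 3 and lowest in clone 4.

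Genes of inhibitory receptors and exhaustion differed one by one. Pdcd1, which encodes PD-1, was at 1056 CPM in clone 1, 737 in clone 2, 839 in clone 3 and 730 in clone 4, with a UMI in 93.8% to 97.9% of cells. Tox, a transcription factor of exhausted cells, was at 58.0, 66.8, 59.2 and 59.2 CPM, and its intervals overlap in all 4. Havcr2, the gene of TIM-3, was at 79.9, 113, 73.3 and 65.9 CPM. Of 16 exhaustion genes, clone 3 had 2 higher (Cd244a and Cd160) and 5 lower (Ctla4, Entpd1, Cd38, Nr4a2 and Prdm1), against backgrounds of 8.97% and 7.53%. Clone 2 had 3 higher and 2 lower, against 5.19% and 3.46%. Clone 4 had 2 lower, against 7.19%, and clone 1 had 1 lower, against 8.33%. Entpd1, the gene of CD39, was at 171, 183, 93.2 and 152 CPM, and Ctla4 at 282, 429, 238 and 435 CPM. Eomes, a transcription factor of effector and exhausted cells, was lowest in clone 4, at 17.8 CPM against 44.5, 59.9 and 45.1.

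The authors' exhaustion score per cell had a higher mean in clones 1 and 2 than in clones 3 and 4, a difference that was not tested. This score had a mean of 0.062 in clone 1 (SD over cells 0.158), 0.084 in clone 2 (0.159), -0.006 in clone 3 (0.155) and 0.013 in clone 4 (0.153). Their CXCR3 score was -0.027 in clone 1, -0.055 in clone 2, -0.072 in clone 3 and -0.028 in clone 4, with SDs from 0.066 to 0.081. Their activation score ranged from -0.204 in clone 3 to -0.179 in clone 2. The sources used here do not say how the scores were made, and they may read the same genes as the levels above. Cxcr3 itself was low in all 4 clones, at 9.63, 4.28, 7.40 and 15.2 CPM, and at 35.7 CPM in the cells of other clones.

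Clone 4 was led by Klra3. This gene, which encodes an inhibitory receptor of the Ly49 family (mm10 chr6:130323289-130337574, minus strand), was at 1.82 CPM in clone 1, 5.92 in clone 2, 8.14 in clone 3 and 67.6 in clone 4, which is 15.5-fold (10.3 to 23.6) above the other 3. In clone 4, 13.3% of cells had a UMI, against 0.97% to 2.37% in the others. Of the distinct 60-base stretches in Klra3 transcripts 12.4% occur in another gene, mostly Klra9. Klra3 was thus found in a minority of clone 4's cells, and the level was 56.1 CPM without its richest cell and 38.0 CPM without the cells with macrophage UMIs. Ramp3, a partner of calcitonin-family receptors, was at 18.5, 30.6, 43.7 and 74.4 CPM, and Hsd17b11, a steroid and lipid droplet dehydrogenase, at 5.47, 17.4, 3.70 and 31.3 CPM. Lowest in clone 4 were Mt1, Xlr4a at 1.69 CPM against 17.0 to 25.0, and Swap70, a guanine nucleotide exchange factor, at 5.92 CPM against 19.1 to 40.7. Xlr4a belongs to a family of copies on the X chromosome, and 74.1% of its 60-base stretches occur in another gene.

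Homing genes and cytokine receptors differed in single members. Itgb7, an integrin chain for homing to the gut, was at 52.3, 22.7, 6.66 and 23.7 CPM, and Ccr2, a chemokine receptor, at 93.7, 82.6, 31.1 and 37.2 CPM. In clone 3, 4 of 11 measured homing genes were lower and none higher, against a background of 7.53% lower. Clone 1 had 2 of 11 higher and 4 lower, against 4.38% and 8.33%. Clone 2 had 3 of 11 higher and 1 lower, against 5.19% and 3.46%, and clone 4 had 2 of 12 higher and 1 lower, against 4.91% and 7.19%. Il12rb1, the chain shared by the receptors for IL-12 and IL-23, was at 29.1, 14.5, 22.9 and 16.9 CPM. Il12rb2, the other chain of the IL-12 receptor, was at 9.37, 13.8, 19.98 and 24.5 CPM. The order of the clones for one chain was thus not that for the other. Of 11 measured glycolysis genes, only Hk2 passed 1.5-fold, higher in clone 2 (13.8 CPM) and lower in clone 3 (4.44 CPM). The backgrounds were 5.19% higher in clone 2 and 7.53% lower in clone 3.

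The related receptors of clones 2 and 3 did not go with the closest expression. Over 2003 genes with at least 50 CPM in the 4 clones together, clones 2 and 3 were at least 1.5-fold apart for 167 genes (8.34%). Clones 2 and 4, whose CDR3s differ in length in both chains, were apart for 54 (2.70%). The other pairs were apart for 171 genes (8.54%, clones 1 and 4), 179 (8.94%, clones 1 and 2), 195 (9.74%, clones 3 and 4) and 216 (10.8%, clones 1 and 3). In each of these 6 pairs every gene past the fold had an interval that leaves out 1. Clone 3 was low for more genes than it was high for against clone 2, with 136 of the 167 higher in clone 2.

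Dual-beta cells, with both betas, were at least 1.5-fold apart from clone 2 for 70 genes (3.49%), from clone 4 for 131 (6.54%), from clone 3 for 204 (10.2%) and from clone 1 for 231 (11.5%). For several genes that divide clones 2 and 3 their level lay near that of clone 2. Kit was at 11.5 CPM in dual-beta cells, 11.5 in clone 2 and 80.7 in clone 3. Ly6c2 was at 200, 197 and 46.6 CPM, Ikzf2 at 105, 106 and 283, and Irs2 at 116, 107 and 51.1 in the same order. Gzmf, at 1050 CPM, lay above clone 2 (383) and clone 3 (226) alike, and still did at 698 CPM without its richest cell. Median depth was 7200 UMIs in dual-beta cells, above clones 2 and 3, and whether such droplets hold 1 cell or 2 was not tested.

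**Figure D4:**
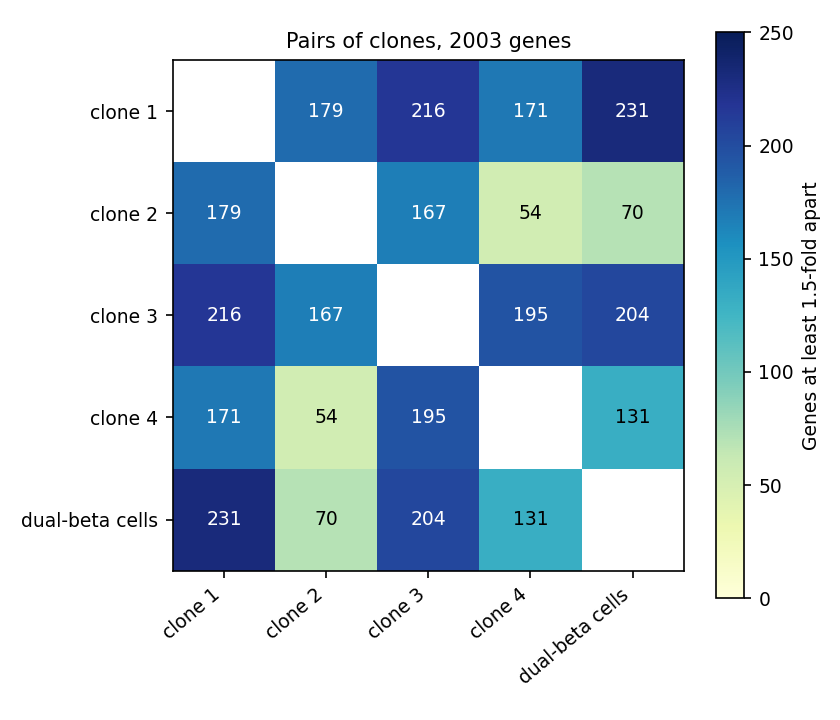
Number of genes, of 2003 with at least 50 UMIs per 1000000, whose level differed by at least 1.5-fold between each pair of clones and between each clone and the dual-beta cells. Clones 2 and 4 (54 genes) and clone 2 and the dual-beta cells (70) were the closest pairs, and clones 2 and 3 were 167 genes apart.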

How the data were processed

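Per the labels, cells of 3 mice per treatment were pooled and 5′ libraries made. Tools listed in the submitters' processing notes are Cell Ranger 2.1.0, STAR 2.6.1 and Partek, with genome mm10. The authors deposited expression values as log2 of CPM plus 1, with cluster, class and clonotype columns, and a receptor table with score values and phase calls per cell. The scale was read from the values. UMIs were recovered by undoing the logarithm, with a cell's smallest value as 1 UMI, and were whole within 0.1 for all but 13 of 13883686 values. The table's genes hold 70.38% of UMIs. V segment genes and 12 of the genes on the lists were not analysed here. CDR3 residues come from the authors' clonotype column.

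Clones were compared in the 1 IL-12 library with no test. Levels are summed UMIs per 1000000, folds compare a clone with the other 3 summed, and 10 CPM were added to both levels before a log2 ratio. Shares have exact Clopper-Pearson 95% intervals, levels exact Poisson and folds exact conditional intervals. Thinning drew 2000 UMIs per cell at random and left out shallower cells, 1 of clone 4, 1 of the other clones and 1796 of 5908 neutrophils. Named genes are the 5 highest and 5 lowest log2 ratios of measured genes per clone (receptor, immunoglobulin, mitochondrial and ribosomal genes left out), up to 4 per list by range over the clones, and 10 set genes. Gzme, Gzmf, Foxp3, Ncr1, Flt3, Csf1r, Adgre1, Cd79a, Hspa1a and Hspa1b, and list genes given only by name, were chosen after their values were seen. So were Dut, Slbp, Pcna, Hmgb2 and Tubb4b. The members and the 25 gene lists were chosen with earlier results of these data known. Tested on simulated data for clone 1 against the other 3, the fold rule called 50 of 50 genes made 2-fold higher and 0 of 1728 unchanged genes. Both kinds were taken only from genes with far more UMIs than the floor of 50, and only the largest clone was compared. Genes with fewer UMIs and the smaller clones were thus not covered. The simulation has no spread between cells. Gene positions and 60-base sharing come from the GENCODE annotation of mm10. Python 3.11.15, numpy 2.4.6, scipy 1.17.1 and pandas 2.3.3 were used. Alternatives tried were cluster 12, all classes or cluster 5 only, other thinning and thresholds, other references and weights, other filters, and, chosen after seeing the data, beta chain assignment, cells without macrophage UMIs, and leaving out a gene's richest cell.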

Additional observations from a re-analysis of the deposited data

How the results depend on the processing

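The 40 ranked genes and clones are the highest and lowest log2 ratios in these same cells, most of which most alternatives use again. That they keep their direction was thus likely in advance and is not independent support. Of their 560 values under 15 alternatives, 560 kept their direction and 423 stayed within the counting interval of the ratio. Of the 560, 544 stayed past 1.5-fold. The 16 that did not were those of Ccl8 in clones 1, 2 and 3 and of Apoe in clone 3 without cells with macrophage UMIs, of Upp1 in clones 1 and 2 and Cd24a in clone 4 with cluster 12 or all cells, of Ccl3 in clone 2 with all cells, of Gzmc in clone 4 without the deepest cells, of Ccl8, Creb3l2 and Upp1 in clone 2 with clone 1 out of the reference, and of Kit in clone 4 with clone 3 out of it. No paired analysis was possible because all clones lie in 1 library. The clone as recorded in the receptor table could not be tried, since that table gives no clone identifier. The share in cluster 5 was 82.5%, 82.9%, 80.2% and 82.1% in clones 1 to 4 with cluster 12 included, and 77.6%, 73.1%, 73.4% and 67.5% with all cells of the clone. The cell cycle share was 11.78%, 11.6%, 12.3% and 10.3% in clones 1 to 4 when thinned to 1000 UMIs, and 89.2%, 89.2%, 88.6% and 92.8% without thinning. It was 57.7%, 61.7%, 61.1% and 66.5% at 2 or more UMIs, and 9.46%, 10.8%, 9.95% and 12.9% at 5 or more. Which clone is highest depends on the depth of thinning. Genes past 1.5-fold with at least 20 UMIs and no share of cells numbered 461 higher and 1101 lower in clone 1, 636 and 529 in clone 2, 970 and 905 in clone 3, and 630 and 974 in clone 4. With all cells of the clone, 139 were lower in clone 2 and 296 in clone 4. For clone 4, 188 were higher and 201 lower when the interval had to leave out 1, and 196 were higher with clone 1 out of the reference. The score differences moved by less than 1 SD over cells in every alternative run, a limit wider than the differences themselves.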

Other observations

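Gzma, the gene of granzyme A, was carried by a small minority of cells. It was at 142 CPM in clone 1 and 132 in clone 2, against 3.70 in clone 3 and 5.07 in clone 4. In clone 1, 9 cells with 10 or more UMIs held 93.6% of its UMIs, and in clone 2, 7 such cells held 94.8%, while clones 3 and 4 had none. In dual-beta cells a single cell held 97.2%. Cells of the other clones had Gzma at 773 CPM.

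B cell genes appeared in a few cells of 2 clones. Cd79a, a chain of the B cell receptor complex, was at 22.7 CPM in clone 2 and 15.2 in clone 4, with a UMI in 1.22% and 1.03% of cells, and at 1.30 and 0.74 CPM in clones 1 and 3. The heat shock genes Hspa1a and Hspa1b, near copies of each other, were at 32.0 and 27.3 CPM in clone 1, 41.1 and 42.4 in clone 2, 0.74 and 2.22 in clone 3, and 10.99 and 14.4 in clone 4. These values were singled out after they were seen.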
